A study of Mus musculus with 66 samples.

Results

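The comparison of E18 with E16 cerebellum covers the last days of gestation, and it rests on 12 of the 66 arrays of the series: 3 DBA/2J and 3 C57BL/6J samples at E18, and 3 DBA/2J and 3 C57BL/6J samples at E16. The arrays were chosen by their labelled age and strain alone. Both are inbred strains, with no treatment, transgene or mutation named in the labels, the tissue was whole cerebellum, and total RNA was hybridised to Illumina bead arrays. The labels call the 3 samples of a group biological replicates, but whether a sample was 1 cerebellum or a pool, whether samples shared a litter, and the sex of the embryos are not stated in the labels. The p-values below rest on the spread between samples of a group, pooled over the groups of all 66 arrays, and part of that spread may be technical. E17 samples of both strains (3 arrays each) lie between the 2 ages and are shown beside them. A level is the log2 of the quantile-normalized probe signal. A change is E18 minus E16 on that scale, averaged with equal weight over the strains and given ± the model's SE (6 arrays at each age). A gene is called higher or lower where the Benjamini-Hochberg adjusted p of limma's moderated test, over all 26645 probes kept, was under 0.05.

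In the mouse, cerebellar neurons arise from a pair of germinal zones. The ventricular zone gives rise to the inhibitory neurons, among them the Purkinje cells, which are the sole output neurons of the cerebellar cortex, and the rhombic lip gives rise to the excitatory neurons, first those of the cerebellar nuclei and then the granule cells. Late in gestation Purkinje cells are postmitotic and move into a plate under the external granule layer, where granule cell progenitors divide in response to Sonic hedgehog released by Purkinje cells, while Bergmann glia differentiate and oligodendrocyte precursors appear.

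Cerebellar identity genes were bright at both ages. The midbrain-hindbrain boundary factors En1 and En2 had mean levels of 11.3 and 11.84 at E18 and of 11.27 and 11.87 at E16, and Zic1, a factor of granule cell precursors, had 13.04 at E18 and 12.97 at E16. Beside these, the median level of 6 measured forebrain markers lay between 6.45 and 6.62 on the E18 arrays and between 6.48 and 6.6 on the E16 arrays, and that of 5 caudal hindbrain Hox genes between 6.54 and 6.69 at E18 and between 6.54 and 6.98 at E16, close to the array median of 6.44. Such medians hide single genes: Hoxb4 stood at 7.82 on DBA/2J E16 replicate 1, and between 6.69 and 7.07 on the other E16 arrays. That array also had the highest E16 level of Sncg, Tal1, Crabp1, Sox10, Isl1 and Phox2a, and the lowest of Otx2 (8.07). What sets it apart was not tested. Raw signal medians of the E16 to E18 arrays ran from 78.9 to 94.8.

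Over all probes 2388 were called (8.96% of those tested), 896 higher (3.36%) and 1492 lower (5.6%) at E18. Among 14017 genes, each represented by its brightest probe, 1146 were called (8.18%), 650 higher (4.64%) and 496 lower (3.54%). The balance of directions depended on the scaling: with arrays scaled to equal medians 460 probes were higher and 1675 lower, with no further normalization 669 and 1345, and with the authors' own scores 753 and 1641. Large changes were mostly falls: 11 genes were called at least 2-fold higher and 78 at least 2-fold lower. In DBA/2J alone 1220 probes were called (4.58%), 472 higher (1.77%) and 748 lower (2.81%), and among genes 623 (4.44%), 309 higher (2.2%) and 314 lower (2.24%). In C57BL/6J alone 894 probes were called (3.36%), 276 higher (1.04%) and 618 lower (2.32%), and among genes 426 (3.04%), 214 higher (1.53%) and 212 lower (1.51%). The counts of 1 strain rested on its single arrays: leaving out any 1 of its 6 arrays moved the count, to between 330 and 1862 probes in DBA/2J, with the highest count without E16 replicate 3 and the lowest without E16 replicate 1, and to between 181 and 536 in C57BL/6J, with the lowest without E18 replicate 1. All 6 E18 arrays lay above all 6 E16 arrays for 561 genes (4.0%) and below them for 372 (2.65%).

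E18 and E16 samples were not run on the same chips. The E18 samples sat on 3 chips, the E16 samples on 4, and 0 chips held both ages. The chip numbers in the column headings fall into sets that begin alike, called array series here, and 1 of them held both ages (all 3 C57BL/6J E18 samples and DBA/2J E18 replicate 1, and C57BL/6J E16 replicate 2). A chip difference and an age difference are therefore separated only through arrays of other ages on those chips. With a fixed chip block 1 probe was called, that of the cyclin O gene Ccno (change 0.68 ± 0.11, adjusted p = 0.0471), while 2048 probes had an unadjusted p under 0.05. In that fit the median change of called genes was 0.51 of its unblocked size for genes called higher and 0.33 for genes called lower, and the median SE over probes was 0.16, against 0.11 without the block. With the chip as a random block 341 of the 1146 called genes kept their call (192 higher, 149 lower), and 220 did with a fixed block for the array series (116 higher, 104 lower). For this reason values with these blocks and levels at E17 stand beside many of the main results, and how far chips account for a change was not tested further. A gene given without them did not necessarily keep its change under a block. Whole tissue was measured, so more or fewer cells of a type and more or less RNA per cell cannot be told apart.

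The 3 largest rises were in Thy1, Itpr1 and Calb1, genes of maturing neurons. Thy1, the gene of a neuronal surface glycoprotein that appears as projection neurons mature, had levels at E18 of 9.66, 10.07 and 9.59 in DBA/2J and of 10.06, 9.73 and 9.92 in C57BL/6J, against 9.14, 8.01 and 7.75 in DBA/2J and 7.61, 7.92 and 7.77 in C57BL/6J at E16. The E18 arrays all lay above the E16 arrays, though DBA/2J E16 replicate 1 stood well above its group. The change was 1.81 ± 0.27 (3.49-fold, adjusted p = 9.3e-06), and 1.45 with a fixed chip block.

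Itpr1, the inositol trisphosphate receptor that releases calcium from the endoplasmic reticulum of Purkinje cells, had levels at E18 of 10.83, 11.07 and 11.11 in DBA/2J and of 10.88, 10.91 and 10.66 in C57BL/6J, against 8.97, 9.38 and 9.38 in DBA/2J and 9.4, 9.63 and 9.69 in C57BL/6J at E16. All E18 arrays were high and all E16 arrays low, with the E17 arrays between 9.48 and 10.18. Its change was 1.5 ± 0.20 (2.83-fold, adjusted p = 1.58e-06). Calb1, which encodes the calcium buffer calbindin and marks Purkinje cells, had levels at E18 of 8.96, 9.01 and 9.05 in DBA/2J and of 9.31, 9.23 and 9.11 in C57BL/6J, against 7.51, 7.62 and 7.72 in DBA/2J and 7.8, 8.17 and 7.96 in C57BL/6J at E16. Again the ages did not overlap, and the change was 1.32 ± 0.19 (2.49-fold, adjusted p = 6.54e-06). Both genes kept their call with a random chip block (adjusted p = 2.98e-04 and 0.00149) and with an array series block (adjusted p = 0.00185 and 0.0102). Their changes were 1.08 and 0.91 in the fit with a fixed chip block.

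The Purkinje cell list did not move as 1 group. Of 24 measured genes 4 were higher and 3 lower at E18, beside 4.64% and 3.54% of all genes. The median change of the list was -0.01, beside 0.02 over all probes. Besides Itpr1 and Calb1, the ETS factor Etv4 (0.65 ± 0.14, adjusted p = 7.78e-04) was among those called higher. The change of Etv4 was 0.13 with a fixed chip block. The members called lower were transcription factors of young Purkinje cells and a calcium buffer: Bcl11a (-0.78 ± 0.13, adjusted p = 5.72e-05), Lhx5 (-0.65 ± 0.14, adjusted p = 0.00112) and Pvalb, which encodes parvalbumin (-1.29 ± 0.28, adjusted p = 0.00114). Bcl11a had levels from 10.66 to 10.97 at E18 and from 11.03 to 11.93 at E16, without overlap, and a second probe of the gene was also called lower (-0.52). With a fixed chip block Bcl11a changed by -0.33 and Lhx5 by -0.21. With a random chip block Bcl11a kept its call (adjusted p = 0.0189) and Lhx5 lost it (adjusted p = 0.148). Both lost it with an array series block (adjusted p = 0.0616 and 0.368). The Purkinje cell marker Pcp2 had mean levels of 9.32 at E18 and 9.7 at E16 and was not called (adjusted p = 0.461), and neither was the nuclear receptor Rora (change 0.01, adjusted p = 0.995).

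**Figure D1:**
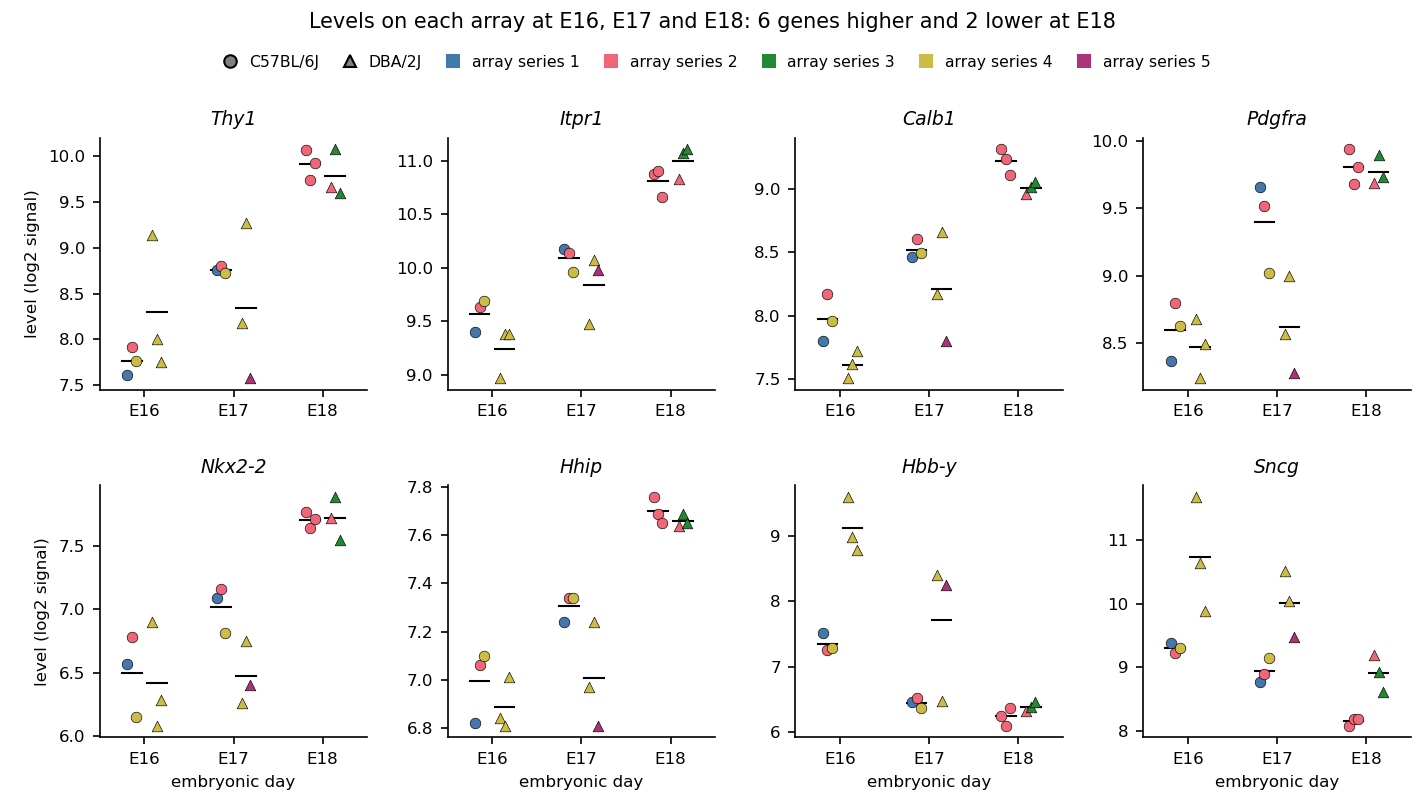
Level (log2 signal, vertical axis) on each array at E16, E17 and E18 (horizontal axis) for 8 genes, with circles for C57BL/6J, triangles for DBA/2J, colours for array series and a short line for the mean of 3 arrays. Thy1, Itpr1, Calb1, Pdgfra, Nkx2-2 and Hhip stand higher on all E18 than on all E16 arrays, and Hbb-y and Sncg stand lower.

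Pdgfra and Nkx2-2, a pair of genes of the oligodendrocyte lineage, rose. Pdgfra, the platelet-derived growth factor receptor that marks oligodendrocyte precursors, had levels at E18 of 9.69, 9.9 and 9.73 in DBA/2J and of 9.94, 9.68 and 9.81 in C57BL/6J, against 8.68, 8.24 and 8.49 in DBA/2J and 8.37, 8.8 and 8.63 in C57BL/6J at E16. The 2 ages did not overlap in either strain, and the change was 1.26 ± 0.17 (2.39-fold, adjusted p = 1.28e-06). Nkx2-2, a homeodomain factor of the same lineage that also patterns the ventral neural tube, had levels at E18 of 7.72, 7.89 and 7.55 in DBA/2J and of 7.77, 7.64 and 7.71 in C57BL/6J, against 6.9, 6.08 and 6.28 in DBA/2J and 6.57, 6.78 and 6.15 in C57BL/6J at E16. Here too every E18 array was above every E16 array, and the change was 1.25 ± 0.17 (2.38-fold, adjusted p = 2.05e-06). Both kept their call with a random chip block (adjusted p = 5.81e-04 and 1.63e-04) and with an array series block (adjusted p = 0.0105 and 0.00687), and their changes were 0.86 and 0.99 with a fixed chip block.

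Of 21 measured oligodendrocyte and myelin genes 4 were higher and 0 lower, beside 4.64% and 3.54% of all genes. The median change of the list was 0.08. The others called were Sox8, a SoxE factor of oligodendrocyte and Bergmann glial precursors (0.64 ± 0.14, adjusted p = 0.0011), and Cnksr3, whose change of 0.27 ± 0.09 had adjusted p = 0.0358 and lost its call in 8 of the 12 fits that left out 1 array and with equal medians. With a fixed chip block Sox8 changed by 0.16 and Cnksr3 by 0.26. The lineage factor Olig1 had a change of 0.46 ± 0.17 and adjusted p = 0.0782. The myelin genes Mbp and Mag had mean levels at E18 of 7.66 (Mbp) and 7.25 (Mag), against 7.55 (Mbp) and 7.39 (Mag) at E16, and were not called (adjusted p = 0.939 and 0.823). Sox10, a SoxE factor that was placed on the glial list below but acts in the oligodendrocyte lineage, changed by 0.66 ± 0.16 (adjusted p = 0.00414), and by 0.13 with a fixed chip block. Its level on DBA/2J E16 replicate 1 was 8.18, above the E18 arrays, whereas the other 5 E16 arrays lay between 6.87 and 7.12.

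Of 19 measured Bergmann glial and astrocyte genes 5 were higher and 0 lower, beside 4.64% and 3.54% of all genes. The median change of the list was 0.38, or 0.13 with a fixed chip block. Gdf10, a TGF-beta family ligand made by Bergmann glia, had levels at E18 of 11.82, 11.78 and 11.87 in DBA/2J and of 12.06, 12.09 and 11.88 in C57BL/6J, against 10.69, 11.28 and 11.32 in DBA/2J and 11.19, 11.47 and 11.34 in C57BL/6J at E16. The ages did not overlap and the change was 0.7 ± 0.15 (1.63-fold, adjusted p = 9.39e-04). The lipid carrier gene Apoe (0.74 ± 0.19, adjusted p = 0.00694), the astrocyte gap junction gene Gja1 (0.38 ± 0.10, adjusted p = 0.00937) and the acyl-CoA synthetase gene Acsbg1 (0.31 ± 0.10, adjusted p = 0.0358) were called as well. Gfap, the intermediate filament of mature astrocytes, had mean levels of 6.72 at E18 and 6.28 at E16 and was not called (adjusted p = 0.296). With arrays scaled to equal medians 3 members were called and the list's median was 0.25, Gja1 among those that lost their call. A random chip block left 1 called and an array series block left 0. Among 23 measured ventricular zone and radial glial genes 1 was higher and 2 were lower (median -0.03): the glutamate transporter gene Slc1a3 (0.52 ± 0.16, adjusted p = 0.0263; call lost in 6 of the 12 fits that left out 1 array and with equal medians), the homeobox gene Msx3 (-0.97 ± 0.16, adjusted p = 6.09e-05) and the rhombic lip and ventricular zone factor Olig3 (-0.31 ± 0.09, adjusted p = 0.0161). Msx3, a dorsal progenitor gene, ran from 8.16 to 8.54 on the E18 arrays and from 9.09 to 9.73 on the E16 arrays, and kept its call with both the random chip block and the series block (adjusted p = 0.00494 and 0.0203).

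Hhip rose in the hedgehog pathway by a small amount with little spread between E18 arrays. Hhip, a membrane protein that binds hedgehog ligands and is itself a target of the pathway, had levels at E18 of 7.64, 7.69 and 7.65 in DBA/2J and of 7.76, 7.69 and 7.65 in C57BL/6J, against 6.84, 6.81 and 7.01 in DBA/2J and 6.82, 7.06 and 7.1 in C57BL/6J at E16. The 6 E18 levels spanned less than the gap between the ages, and the E17 arrays lay between 6.81 and 7.34. The change was 0.74 ± 0.09 (1.67-fold, adjusted p = 5.83e-07), with 0.58 under the fixed chip block and adjusted p = 3.54e-05 under the random one. Of 13 measured pathway genes 3 were higher and 0 lower, beside 4.64% and 3.54% of all genes. The median change of the list was 0.23, or -0.09 with a fixed chip block and 0.07 with an array series block. The inhibitor gene Sufu was also called (0.61 ± 0.18, adjusted p = 0.0236), and it lost its call in 4 of the 12 fits that left out 1 array. Hhip was the 1 member left without C57BL/6J E16 replicate 3 or without C57BL/6J E18 replicate 1. For Sufu the change under the fixed chip block was -0.09. Ptch1, the main receptor and a target of the pathway, had mean levels of 8.95 at E18 and 8.46 at E16 (adjusted p = 0.0647), and the ligand gene Shh had 7.18 at E18 and 6.96 at E16 (adjusted p = 0.33).

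Cell cycle genes shifted upward by small amounts. Of 26 measured members 10 were higher and 1 lower, beside 4.64% and 3.54% of all genes. A change above 0 was seen in 24, and the median change was 0.34, with 0.33 in DBA/2J and 0.36 in C57BL/6J. The mitotic checkpoint kinase gene Bub1b changed by 0.57 ± 0.11 (adjusted p = 5.14e-04), the G1/S transcription factor gene E2f1 by 0.6 ± 0.12 (adjusted p = 5.3e-04), the cyclin B1 gene Ccnb1 by 0.72 ± 0.16 (adjusted p = 0.00126) and the mitotic kinase gene Aurkb by 0.55 ± 0.12 (adjusted p = 0.00143). The proliferation marker Mki67 (0.6 ± 0.14), topoisomerase gene Top2a (0.46), Mcm2 (0.5), Nusap1 (0.45), Ccne1 (0.37) and Cenpe (0.38) completed the calls, whereas Pcna was at 8.45 at E18 and 8.43 at E16. E2f1 had levels at E18 of 10.02, 10.25 and 10.15 in DBA/2J and of 9.97, 9.89 and 9.88 in C57BL/6J, against 9.58, 9.86 and 9.38 in DBA/2J and 9.33, 9.26 and 9.14 in C57BL/6J at E16. Its ages did not overlap, but in DBA/2J the gap to the highest E16 array was narrow, and it was not called with arrays scaled to equal medians.

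These calls were sensitive to the arrays and the scaling. Without DBA/2J E16 replicate 1, 6 cell cycle members were called higher, and over the 12 fits that each left out 1 array the count ran from 6 to 14. It was 6 with arrays scaled to equal medians, 2 with a random chip block and 1 with an array series block. The median change of the list was 0.27 with equal medians and 0.29 with a fixed chip block. The 1 member called lower, the kinetochore gene Cenpf (-1.13 ± 0.32, adjusted p = 0.0152), was not measured alike by its probes: of its other probes 1 was called higher (0.44) and 1 lower (-0.51). Its call was lost without C57BL/6J E16 replicate 3 (adjusted p = 0.0549).

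Of 13 measured granule cell progenitor genes 4 were higher and 0 lower, beside 4.64% and 3.54% of all genes. The median change of the list was 0.16, with 0.31 in DBA/2J and 0.0 in C57BL/6J, and it was 0.05 with arrays scaled to equal medians. The members called were the hedgehog effector Gli2 (0.49 ± 0.12, adjusted p = 0.00595), the D-type cyclin Ccnd1 (0.45 ± 0.12, adjusted p = 0.0119), the rhombic lip factor Pax6 (0.48 ± 0.15, adjusted p = 0.0246) and the homeobox factor Barhl1 (0.27 ± 0.09, adjusted p = 0.0403). With equal medians 0 of them were called, 2 to 4 were called in the 12 fits that left out 1 array (Barhl1 lost its call in 10 and Pax6 in 5), and 1 was called with a random chip block and 1 with an array series block. Pax6 had levels from 9.59 to 9.98 at E18 and from 9.16 to 9.57 at E16. Of 18 granule neuron genes 1 was higher, the vesicular glutamate transporter gene Slc17a7 (0.51 ± 0.15, adjusted p = 0.0187), and 1 lower, the axonal adhesion gene Cntn2 (-1.12 ± 0.29, adjusted p = 0.00718). The sign of Cntn2 turned with a fixed chip block (0.49), and Slc17a7 lost its call in 3 of the 12 fits that left out 1 array and with equal medians.

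The Iroquois factors of the early rhombic lip derivatives fell in both strains. Irx3 had levels at E18 of 9.08, 9.08 and 8.92 in DBA/2J and of 9, 9.12 and 8.94 in C57BL/6J, against 10.44, 10.36 and 10.29 in DBA/2J and 10, 9.97 and 10.5 in C57BL/6J at E16. No E18 array came near the E16 arrays, and the E17 arrays ran from 9.12 to 10. Its change was -1.24 ± 0.15 (0.42 of the E16 level, adjusted p = 1.54e-07). Irx5, its neighbour in the same gene cluster, had levels at E18 of 9.11, 9.32 and 9.23 in DBA/2J and of 9.22, 9.19 and 9.64 in C57BL/6J, against 10.61, 10.42 and 10.29 in DBA/2J and 10.68, 10.57 and 10.53 in C57BL/6J at E16. The ages were again separate, and the change was -1.23 ± 0.14 (0.43 of the E16 level, adjusted p = 5.54e-08). Both kept their call with a random chip block (adjusted p = 1.23e-04 and 1.15e-04) and with an array series block (adjusted p = 0.00185 and 0.00121). Their changes with a fixed chip block were -0.66 and -0.64. The difference between C57BL/6J E17 replicate 2, on an E18 chip, and replicate 1, on an E16 chip, was -0.52 for Irx3 and -0.67 for Irx5. Replicate 3, on the chip of DBA/2J E16 replicates 1 and 2, did not side with replicate 1 in both genes. For Irx3 it stood at 9.74, beside 9.69 on replicate 1 and 9.17 on replicate 2. For Irx5 it stood at 9.8, beside 10.43 and 9.75.

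Of 12 measured cerebellar nuclear and rhombic lip genes 1 was higher and 3 were lower (median -0.12), beside 4.64% and 3.54% of all genes. The T-box factor Eomes, which marks unipolar brush cells and their precursors, changed by 0.74 ± 0.15 (1.67-fold, adjusted p = 4.37e-04), and both of its other probes were called higher too (1.03 and 0.22). Tbr1, a T-box factor of the medial nuclear neurons, changed by -0.31 ± 0.09 (adjusted p = 0.0226), with a change of -0.07 in DBA/2J and of -0.54 in C57BL/6J, and lost its call in 6 of the 12 fits that left out 1 array. Among 15 GABAergic progenitor and interneuron genes 4 were lower and 0 higher (median -0.21). Tfap2b, an AP-2 factor of inhibitory lineages, ran from 9.27 to 10.04 on the E18 arrays and from 10.75 to 11.14 on the E16 arrays and changed by -1.41 ± 0.22 (0.38 of the E16 level, adjusted p = 2.11e-05). A second Tfap2b probe was called lower (-1.07), and the change of the first was -0.28 with a fixed chip block. The remaining Tfap2b probes were not called (-0.34 and -0.41). The neuropeptide gene Npy (-0.88 ± 0.20, adjusted p = 0.00157) and the ligand gene Kitl (-0.77 ± 0.19, adjusted p = 0.00602) were called too. The call of Tal1, a bHLH factor of GABAergic and blood lineages, rested on DBA/2J E16 replicate 1, which stood at 11.33 while the other E16 arrays lay between 7.77 and 8.71: the change was -1.04 with that array and -0.57 without it (adjusted p = 0.0132 and 0.135).

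**Figure D2:**
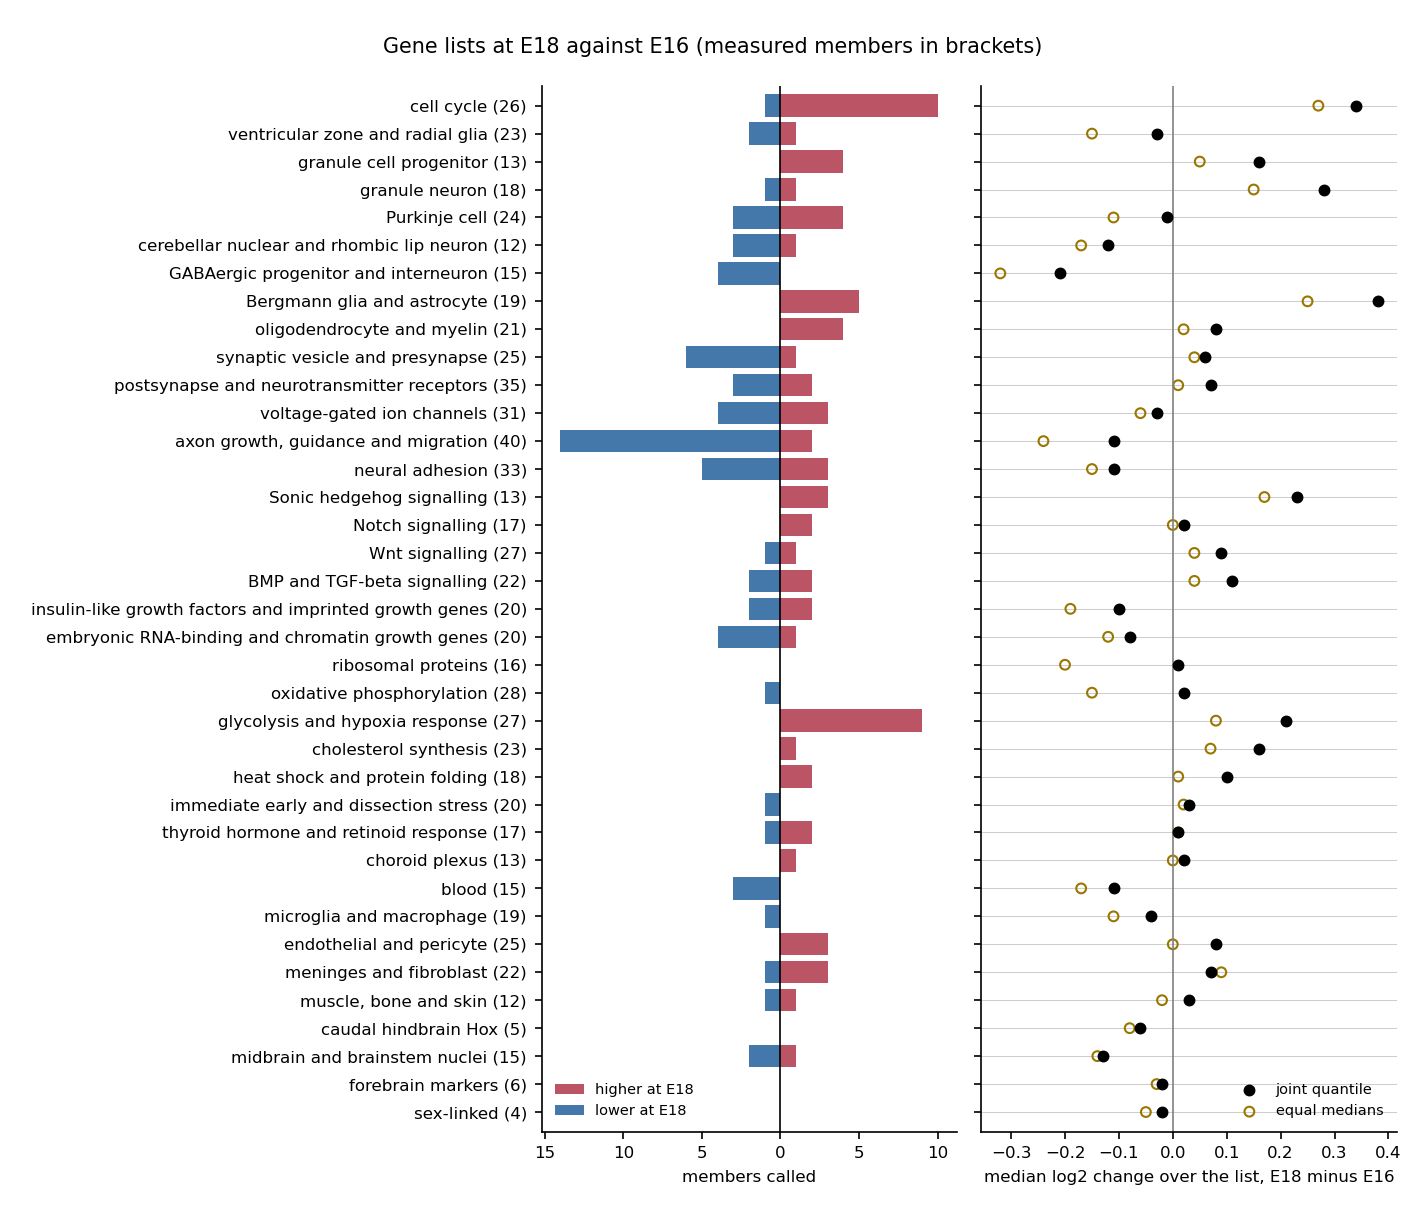
Members called at E18 against E16 in each of 37 gene lists (left panel, number of genes, lower to the left of 0 and higher to the right, measured members in brackets) and the list's median log2 change (right panel) with joint quantile normalization (filled) and with arrays scaled to equal medians (open). The longest bars are 14 axon growth and guidance genes lower, 10 cell cycle genes higher and 9 glycolysis genes higher, and most open circles lie to the left of the filled ones.

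Axon guidance genes were the list with the most members called lower, 14 of 40 measured, with 2 higher and a median change of -0.11. Beside them 3.54% of all genes were called lower and 4.64% higher. Plxna2 and Plxna4, which encode semaphorin co-receptors, changed by -0.91 ± 0.14 (adjusted p = 2.29e-05) and -1.08 ± 0.17 (adjusted p = 2.58e-05), and Nrp2, which encodes a ligand-binding partner of plexins, by -0.95 ± 0.17 (adjusted p = 1.39e-04). Nrp2 had levels at E18 of 8.35, 8.13 and 8.15 in DBA/2J and of 8.15, 8.18 and 8.43 in C57BL/6J, against 9.9, 9.53 and 8.67 in DBA/2J and 9.33, 8.76 and 8.89 in C57BL/6J at E16. The ages did not overlap. With a fixed chip block the change was -0.89 for Nrp2, -0.45 for Plxna2 and -0.3 for Plxna4. The other probes of these genes, at mean levels from 6.43 to 7.06, were not called. Their changes were -0.03 and 0.01 for Nrp2, 0.02 for Plxna2, and -0.03, -0.08 and 0.12 for Plxna4. The Slit receptor Robo1 (-0.71), the Slit ligand Slit2 (-0.31), the netrin receptor Dcc (-0.65), the neuropilin Nrp1 (-0.32) and the semaphorin Sema3c (-0.24) were called lower. So were the ephrin Efnb1 (-0.62), the ephrin receptors Epha4 (-0.5) and Ephb1 (-0.27), the growth cone gene Dpysl3 (-0.86) and the microtubule-associated genes Map1b (-1.26) and Map2 (-1.88). In contrast Vldlr, a reelin receptor (0.42 ± 0.10, adjusted p = 0.00464), and Cxcl12, a chemokine that holds granule cell progenitors at the surface (0.47 ± 0.15, adjusted p = 0.039), were called higher. Vldlr lost its call with arrays scaled to equal medians, and Cxcl12 there and in 7 of the 12 fits that left out 1 array. The other Vldlr probes, the brightest at a mean level of 10.27, were not called (-0.09, 0.11 and -0.1). Several growth cone genes were bright and not called: Gap43 had mean levels of 13.72 at E18 and 13.8 at E16, and Dpysl2 had 14.03 and 14.07. The count of members called lower was 9 without DBA/2J E16 replicate 1, 6 with a random chip block and 4 with an array series block. The count called higher was 1 in 7 of the 12 fits that left out 1 array.

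Synaptic, channel and adhesion genes were called in both directions. Of 25 presynaptic genes 1 was higher and 6 lower (median 0.06), of 35 postsynaptic genes 2 and 3 (median 0.07), of 31 voltage-gated channel genes 3 and 4 (median -0.03), and of 33 neural adhesion genes 3 and 5 (median -0.11). Beside these lists 4.64% of all genes were called higher and 3.54% lower. Sncg, which encodes gamma-synuclein, had levels at E18 of 9.19, 8.93 and 8.61 in DBA/2J and of 8.09, 8.19 and 8.2 in C57BL/6J, against 11.67, 10.64 and 9.89 in DBA/2J and 9.39, 9.22 and 9.3 in C57BL/6J at E16. Within each strain the ages were separate, DBA/2J was higher at both ages, and the change was -1.48 ± 0.24 (0.36 of the E16 level, adjusted p = 3.22e-05) and -1.32 with a fixed chip block. Among those on the higher side were Hpca, the neuronal calcium sensor hippocalcin (0.88 ± 0.18, adjusted p = 5.79e-04), the adhesion genes Cntn1 (0.84 ± 0.19, adjusted p = 0.00237) and Nrcam (0.5 ± 0.10, adjusted p = 3.09e-04), the potassium channel subunit Kcnj6 (0.66 ± 0.15, adjusted p = 0.00159) and, at adjusted p = 0.0398, the vesicle calcium sensor Syt1. The lower side held the neurexin Nrxn3 (-1.07 ± 0.23), synapsin 2 (Syn2, -0.83 ± 0.21), the glutamate receptor genes Grin2a (-0.85 ± 0.14), Grik1 (-0.46 ± 0.13) and Grm5 (-0.68 ± 0.21), and the sodium channel genes Scn3a (-0.92 ± 0.17), Scn1a (-0.83 ± 0.16) and Scn2a (-0.33 ± 0.10). Adhesion genes called lower were Cdh8 (-0.76 ± 0.13), Cntn5 (-0.52 ± 0.09), Ncam2 (-0.5 ± 0.09) and Cntn4 (-0.23 ± 0.05), and the nicotinic receptor gene Chrna3 was called higher (0.36 ± 0.12). Probes of 1 gene could oppose each other here: another Syt1 probe was called lower (-1.24), and Cacna2d1, a calcium channel subunit, had a probe called lower (-1.32) and one called higher (0.40). Syt1 lost its call in 10 of the 12 fits that left out 1 array and with equal medians, Chrna3 lost its call in 11 and with equal medians, Grm5 in 8 and Scn2a in 5. Nrxn3, Syn2 and Scn2a had changes of 0.23, 0.04 and -0.02 with a fixed chip block. The other Nrxn3 probes were not called (0.01 and -0.3). Nor were those of Scn3a (-0.03, -0.21 and 0.02) and Scn2a (0.23, -0.05 and 0.22). Scn3a changed by -0.16 with a fixed chip block and lost its call with an array series block (adjusted p = 0.0856).

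Glycolysis genes were called higher, with calls that varied with the scaling and the strain. Of 27 glycolysis and hypoxia genes 9 were higher and 0 lower, beside 4.64% and 3.54% of all genes, and the median change was 0.21. In C57BL/6J alone 5 were called higher (median 0.24), and in DBA/2J alone 0 (median 0.09). The glycolytic enzyme gene Aldoa had levels at E18 of 11.84, 11.85 and 11.62 in DBA/2J and of 11.74, 11.64 and 11.6 in C57BL/6J, against 11.42, 11.44 and 11.23 in DBA/2J and 11.03, 11.01 and 10.97 in C57BL/6J at E16. Its ages did not overlap, and its change was 0.53 ± 0.10 (adjusted p = 1.41e-04). Gapdh (0.4 ± 0.10), Ldha (0.51 ± 0.13), Gpi1 (0.25 ± 0.06), Tpi1 (0.28), Pgk1 (0.34), the pyruvate dehydrogenase kinase gene Pdk1 (0.36), Ndrg1 (0.36) and the metallothionein gene Mt1 (0.68) were the other calls. With arrays scaled to equal medians 0 of the 27 were called and the median was 0.08, and with no further normalization 2 were called. The median was 0.29 with the authors' scores and 0.22 with background correction (normexp). A random chip block left 4 called higher and an array series block 3. Beside them 1 of 28 oxidative phosphorylation genes was called, Ndufa10 (-0.37 ± 0.11, adjusted p = 0.0167; 0.13 with a fixed chip block, and no call with equal medians), and 0 of 16 ribosomal protein genes, for which the smallest p was that of Rps18 (change -0.18 ± 0.09, adjusted p = 0.249).

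Embryonic globins fell to about the array median by E18. Hbb-y, the epsilon-like beta globin of yolk sac erythrocytes, had levels at E18 of 6.32, 6.39 and 6.46 in DBA/2J and of 6.25, 6.1 and 6.37 in C57BL/6J, against 9.6, 8.99 and 8.79 in DBA/2J and 7.52, 7.25 and 7.29 in C57BL/6J at E16. All E18 arrays were low and alike in the strains, at about the array median, while the E16 arrays were higher in DBA/2J. The change was -1.92 ± 0.31 (0.26 of the E16 level, adjusted p = 3.6e-05), with -2.73 in DBA/2J and -1.11 in C57BL/6J, and the C57BL/6J change alone was not called (adjusted p = 0.203). Hba-x, the zeta-like embryonic alpha globin, had levels at E18 of 6.65, 6.58 and 6.57 in DBA/2J and of 6.42, 6.4 and 6.33 in C57BL/6J, against 9.2, 8.7 and 7.82 in DBA/2J and 7.51, 7.3 and 7.24 in C57BL/6J at E16. Its change was -1.47 ± 0.25 (0.36 of the E16 level, adjusted p = 5.88e-05). Since no detection limit comes with the signals, how much of a level this close to the array median is background was not tested. Globin genes have closely related copies, and how much a probe of one binds the transcript of another was not tested. The promoters of both embryonic globins are shown because these genes moved together. The sequences are from RefSeq (build GRCm38.p6), run 5′ to 3′ in the direction of transcription, and cover 250 bases before to 50 after the start site, for Hbb-y chr7:103853158-103853457 on the minus strand and for Hba-x chr11:32276350-32276649 on the plus strand. Capitals mark the letters CCAAT and also CACCC and TATAAA, boxes known from globin promoters, which were searched on both strands and found only on the strand shown.
Hbb-y: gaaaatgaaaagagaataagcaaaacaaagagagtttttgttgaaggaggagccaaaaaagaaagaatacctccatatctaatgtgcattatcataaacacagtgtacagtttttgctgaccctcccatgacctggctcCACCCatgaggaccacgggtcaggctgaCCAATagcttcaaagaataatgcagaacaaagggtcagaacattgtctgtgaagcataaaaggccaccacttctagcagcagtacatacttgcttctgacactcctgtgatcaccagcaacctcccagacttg
Hba-x: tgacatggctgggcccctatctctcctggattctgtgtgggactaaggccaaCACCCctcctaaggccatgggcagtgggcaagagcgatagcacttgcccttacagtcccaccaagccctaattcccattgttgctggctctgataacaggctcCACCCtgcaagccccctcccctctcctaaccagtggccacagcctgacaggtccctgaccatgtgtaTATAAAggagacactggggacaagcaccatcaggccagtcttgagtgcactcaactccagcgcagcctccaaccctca
Counted from the start site, Hbb-y held CACCC at -111 and CCAAT at -83, and Hba-x held CACCC at -198 and -95 and TATAAA at -28. Among 32851 mouse promoters of this length CACCC was found in 57.5%, CCAAT in 37.4% and TATAAA in 13.6%.

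The adult globins were not called. Hbb-b1 had mean levels of 14.7 at E18 and 14.67 at E16 (change 0.02 ± 0.15, adjusted p = 0.975), and Hba-a1 had 14.31 and 14.55 (adjusted p = 0.443), close to 14.97, the highest level on any array. Of 15 blood genes 3 were lower and 0 higher, beside 3.54% and 4.64% of all genes. The 3 were Hbb-y, Hba-x and the erythrocyte anion exchanger gene Slc4a1 (-0.51 ± 0.11, adjusted p = 0.00135). The list's median level per array ran from 6.8 to 6.94 at E18 and from 7.25 to 7.84 at E16. These are markers of another cell type in the tissue, and the part of blood content in other differences was not tested.

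Among markers of other tissues that a dissection could carry, 4 of 22 meningeal and fibroblast genes and 1 of 13 choroid plexus genes were called, beside 8.18% of all genes. The median level per array of the choroid plexus list ran from 6.54 to 6.7 at E18 and from 6.48 to 6.75 at E16, and that of the meningeal and fibroblast list from 6.79 to 7.3 at E18 and from 6.64 to 6.82 at E16, and their part in other differences was not tested. Of 13 choroid plexus genes 1 was higher, the homeobox factor Otx2 (0.81 ± 0.18, adjusted p = 0.00187), which granule cell progenitors also express. Ttr, the most abundant choroid plexus transcript, had levels from 7.36 to 9.66 at E18 and from 7.41 to 7.99 at E16 and was not called (adjusted p = 0.793). Of the meningeal and fibroblast genes 3 were higher and 1 lower, and the counts were the same in each strain alone, with a random chip block and with an array series block. The members called in DBA/2J alone were not all the same. Col6a1, a collagen VI chain, had levels from 7.56 to 8.02 at E18 and from 6.55 to 7 at E16 (0.98 ± 0.14, adjusted p = 3.84e-06), and Thbs2, which encodes thrombospondin 2, from 6.97 to 7.53 at E18 and from 6.39 to 6.67 at E16 (0.7 ± 0.09, adjusted p = 1.58e-06). Islr was the third member called higher (0.49 ± 0.10), though not in DBA/2J alone (adjusted p = 0.101). The type I collagen gene Col1a1 was called lower (-0.59 ± 0.09, adjusted p = 1.56e-05), and the fibroblast collagens Col1a2 and Col3a1 were at mean levels of 6.35 at E18 and 6.29 and 6.27 at E16.

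Of 25 endothelial and pericyte genes 3 were higher and 0 lower, beside 4.64% and 3.54% of all genes. They were Ly6c1 (0.64 ± 0.12, adjusted p = 1.82e-04) and the blood-brain barrier transporter genes Slco1a4 (0.42 ± 0.08, adjusted p = 5.82e-04) and Slco1c1 (0.41 ± 0.13, adjusted p = 0.0307). Slco1c1 lost its call in 8 of the 12 fits that left out 1 array and with equal medians. Of 19 microglial genes the fractalkine receptor gene Cx3cr1 was lower (-0.46 ± 0.10, adjusted p = 0.00167). Among 15 midbrain and brainstem genes the dopamine transporter gene Slc6a3 was higher (0.33 ± 0.06), and the motor and brainstem neuron factors Isl1 (-0.69 ± 0.13) and Phox2a (-0.51 ± 0.15) were lower. Without DBA/2J E16 replicate 1, which had the highest level of both, Phox2a changed by -0.40 and lost its call (adjusted p = 0.105), as it did in 2 of the other fits that left out 1 array. Xist, which is transcribed in female cells, had levels from 8.62 to 9.63 at E18 and from 6.62 to 11.25 at E16 and was not called (adjusted p = 0.491). The part of embryo sex in other differences was not tested.

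The other signalling, stress and growth lists had 1 to 5 members called each, beside 8.18% of all genes. Of 17 Notch genes the targets Hey1 (0.48 ± 0.13, adjusted p = 0.0114) and Hey2 (0.27 ± 0.09, adjusted p = 0.0368) were higher, and with arrays scaled to equal medians 0 were called. Of 22 BMP and TGF-beta genes the ligands Bmp6 (0.42 ± 0.09, adjusted p = 8.01e-04) and Bmp7 (0.4 ± 0.11, adjusted p = 0.00842) were higher and the antagonists Grem1 (-0.4 ± 0.10, adjusted p = 0.00654) and Fst (-0.26 ± 0.08, adjusted p = 0.0269) lower. Fst had a change of 0.04 with a fixed chip block. Of 20 insulin-like growth factor and imprinted genes Igfbp3 (0.62 ± 0.11, adjusted p = 1.3e-04) and Irs1 (0.44 ± 0.13, adjusted p = 0.0247) were higher and the imprinted genes Dlk1 (-0.66 ± 0.16, adjusted p = 0.00341) and Peg3 (-1.19 ± 0.31, adjusted p = 0.00758) lower. Nr4a2, an orphan nuclear receptor placed on the immediate early list, was the 1 call among 20 genes there (-0.87 ± 0.13, adjusted p = 1.37e-05), and its levels ran from 6.81 to 6.89 at E18 and from 7.35 to 8.25 at E16.

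Of 17 thyroid hormone and retinoid genes the retinoid receptor gene Rxrg (0.5 ± 0.11, adjusted p = 0.00121) and the retinol transporter gene Stra6 (0.49 ± 0.11, adjusted p = 0.00284) were higher. Their changes with a fixed chip block were 0.38 and 0.09. The retinoic acid binding protein gene Crabp1 was called lower (-0.6 ± 0.20, adjusted p = 0.0443), but DBA/2J E16 replicate 1 stood at 8.98, and without it the change was -0.25 (adjusted p = 0.39). Of 27 Wnt genes the agonist Rspo2 was higher (0.31 ± 0.09) and the ligand Wnt7a lower (-0.29 ± 0.09). Of 20 embryonic RNA-binding and chromatin genes the DNA methylation cofactor Uhrf1 was higher (0.42 ± 0.12), and 4 were lower, among them Msi1 (-0.53 ± 0.14) and Igf2bp2 (-0.47 ± 0.13), RNA-binding proteins of progenitors, and Dek (-0.76 ± 0.24). With a fixed chip block the change was 0.09 for Uhrf1, -0.13 for Msi1, -0.33 for Igf2bp2 and 0.05 for Dek. Ezh2 was the other member called lower.

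Of 18 heat shock genes the co-chaperone Bag3 (0.43 ± 0.09, adjusted p = 7.78e-04) and the stress-induced pseudokinase Trib3 (0.22 ± 0.07, adjusted p = 0.0432) were higher, and of 23 cholesterol synthesis genes the mevalonate kinase gene Mvk (0.16 ± 0.05, adjusted p = 0.0205), with a median change of 0.16 over the list. Of 12 muscle, bone and skin genes the cartilage collagen gene Col9a1 was higher (0.65 ± 0.10, adjusted p = 2.43e-05) and the perinatal skeletal myosin gene Myh8 lower (-0.6 ± 0.16, adjusted p = 0.00886). Myh8 had mean levels of 8.94 at E18 and 9.54 at E16. Irs1, Rspo2, Uhrf1 and Trib3 were not called with arrays scaled to equal medians. In the 12 fits that left out 1 array Hey2 lost its call in 9, Wnt7a, Dek and Trib3 in 8 each, Irs1 in 6, Fst in 5, Mvk in 4, Rspo2 in 2 and Myh8 in 1. Of 5 Hox, 6 forebrain and 4 sex-linked genes measured 0 were called, with the smallest p for Hoxb4 (-0.14, adjusted p = 0.525) and Crym (-0.25, adjusted p = 0.451) in the Hox and forebrain lists.

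Besides the embryonic globins and Sncg, the 14 largest falls that had the same sign with a fixed chip block held genes whose E17 levels divided between arrays. Ddx6 (-1.83) and Lsm12 (-1.53) fell as far in the main setting but had a change of 0.02 each with that block and are not among the 14. Luc7l3, a splicing factor gene, had levels at E18 of 9.93, 11.25 and 10.8 in DBA/2J and of 10.75, 10.59 and 10.99 in C57BL/6J, against 12.49, 12.65 and 12.38 in DBA/2J and 12.53, 12.49 and 12.72 in C57BL/6J at E16. The ages were far apart, and the change was -1.83 ± 0.26 (0.28 of the E16 level, adjusted p = 3.85e-06). At E17, however, C57BL/6J replicate 2, which shared its chip with E18 replicate 3, stood at 10.95, and replicate 1, which shared its chip with E16 replicate 1, stood at 12.36. DBA/2J E17 replicates 1 and 2 shared a chip with DBA/2J E16 replicates 1 and 2, and replicate 3 shared none with E16 or E18. These 3 E17 arrays stood at 12.51, 12.6 and 12.38, at the level of E16. C57BL/6J E17 replicate 3 also sat on the chip of DBA/2J E16 replicates 1 and 2. It stood at 11.74, between C57BL/6J replicates 2 and 1. The same holds for Ezh2, the histone H3K27 methyltransferase of neural progenitors, with levels from 8.3 to 9.06 at E18 and from 10.14 to 10.57 at E16 (-1.58 ± 0.24, adjusted p = 1.43e-05): its C57BL/6J E17 replicates 2 and 1 stood at 8.8 and 9.95. Map2, the dendritic microtubule protein gene, had levels from 7.62 to 8.07 at E18 and from 9.49 to 10.11 at E16 (-1.88 ± 0.32, adjusted p = 7.1e-05), and 7.92 and 9.07 on those E17 arrays. C57BL/6J E17 replicate 3 stood at 9.83 for Ezh2 and 9.17 for Map2, near replicate 1. For Phf14 it stood at 9.62, near replicate 2 (9.56) and below replicate 1 (10.91).

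**Figure D3:**
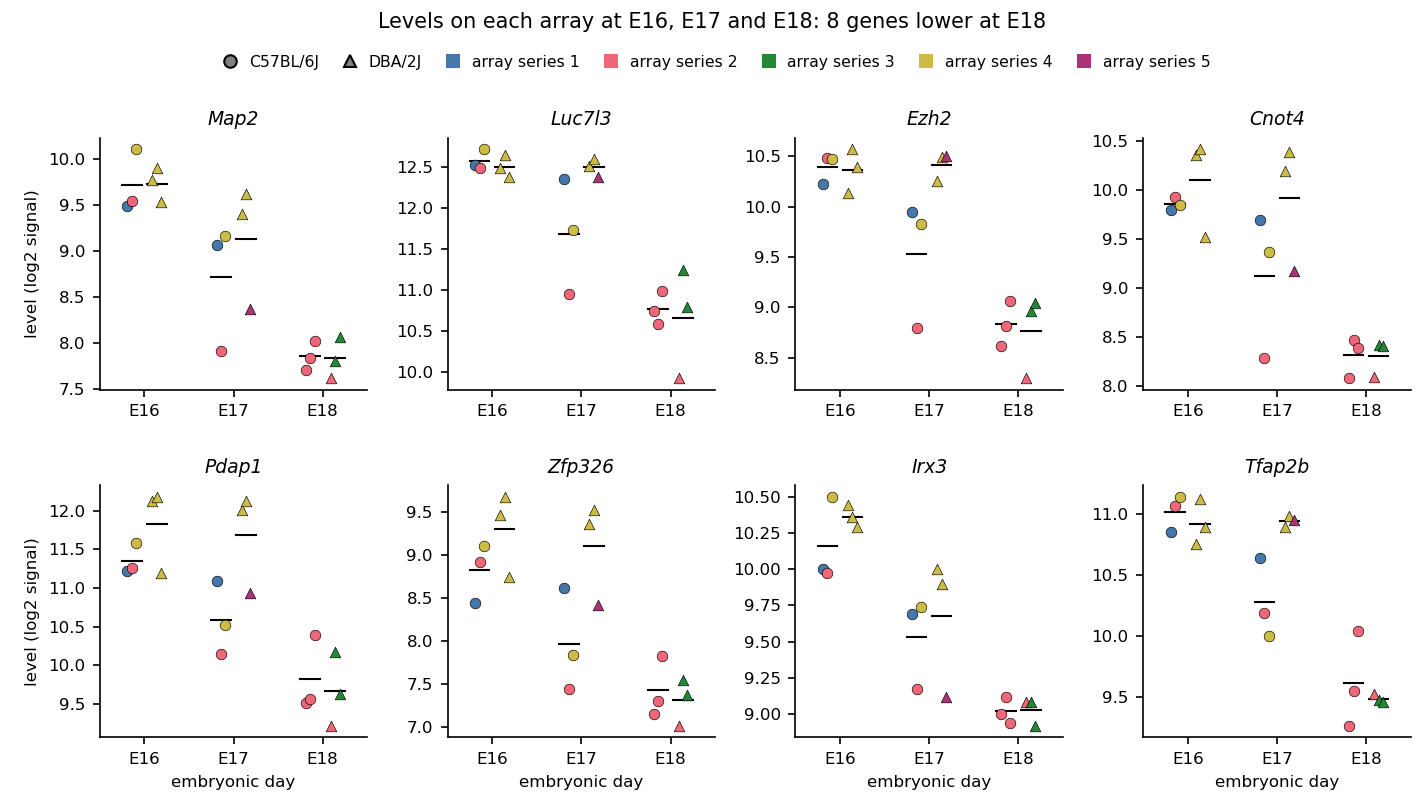
Level (log2 signal, vertical axis) on each array at E16, E17 and E18 (horizontal axis) for 8 genes called lower at E18, with circles for C57BL/6J, triangles for DBA/2J, colours for array series and a short line for the mean of 3 arrays. In each panel the C57BL/6J E17 array of array series 2 lies below the C57BL/6J E17 array of array series 1, at 8.8 against 9.95 for Ezh2. That of array series 4 varies in place. It lies at 9.83 for Ezh2, and for Tfap2b at 10, below the 10.19 of array series 2.

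The gap between these 2 E17 arrays of 1 strain and age, replicate 2 minus replicate 1, was measured for every gene. Its median was 0.02 over all 14017 genes, with 44.2% below 0. For the 650 genes called higher at E18 the median was 0.07 and 33.1% were below 0. For the 496 genes called lower it was -0.35 with 84.3% below 0, and for the 78 called at least 2-fold lower -0.8 with 92.3% below 0. Thus the genes called lower at E18 were mostly also lower on the E17 array that shared a chip with an E18 sample. C57BL/6J E17 replicate 3 does not enter this gap. Within the array series that held both ages, the mean of the 3 C57BL/6J E18 arrays minus E16 replicate 2 was -1.71 for Luc7l3, -1.65 for Ezh2 and -1.7 for Map2, a value with no test that rests on 1 E16 array and compares different chips. The path that stays within chips in C57BL/6J, E18 replicate 3 minus E17 replicate 2 plus E17 replicate 1 minus E16 replicate 1, was -0.13 for Luc7l3, -0.0 for Ezh2 and -0.31 for Map2, also with no test. Over the 14 largest falls its median was -0.14, beside a median C57BL/6J change of -1.54, and over the 14 largest rises it was 1.12, beside 1.18. With the chip as a fixed block the changes were -0.57 for Luc7l3, -0.24 for Ezh2 and -0.55 for Map2.

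**Figure D4:**
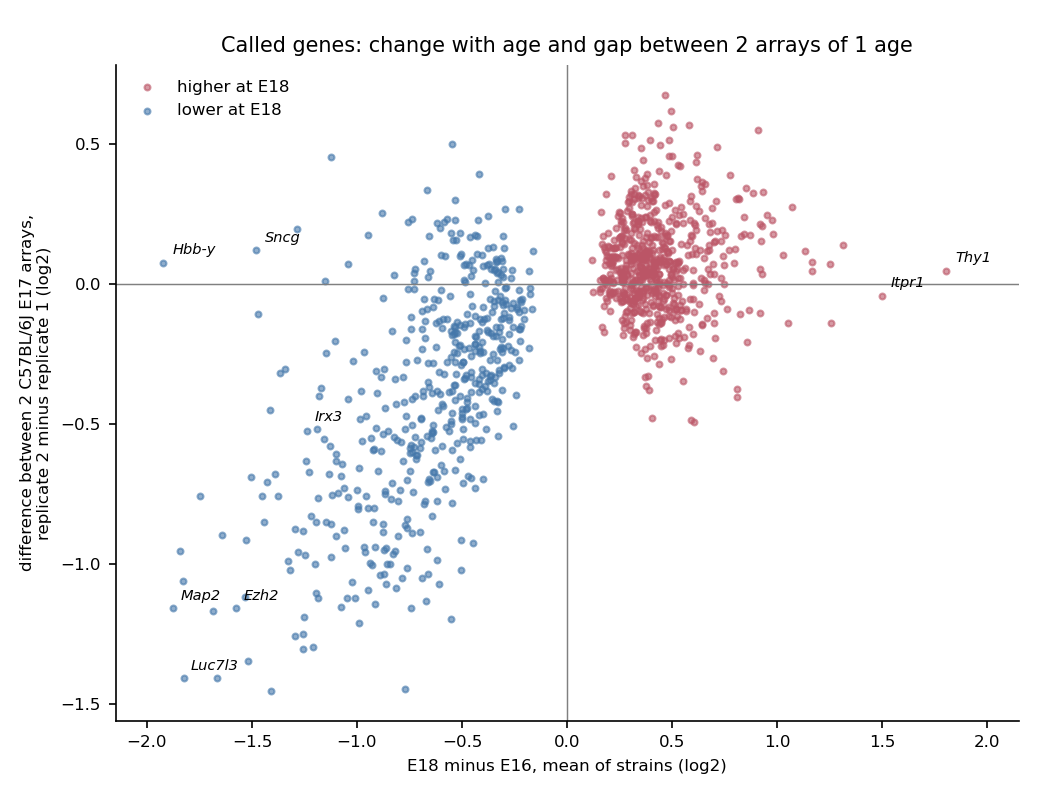
Change at E18 against E16 (horizontal axis, log2, mean of strains) and the difference between 2 C57BL/6J E17 arrays, replicate 2 minus replicate 1 (vertical axis, log2), for the 1146 called genes. Of the genes called lower 84.3% lie below 0 on the vertical axis, with Luc7l3 at -1.41, while Thy1 (0.05), Itpr1 (-0.04), Hbb-y (0.08) and Sncg (0.12) lie near 0 on the vertical axis.

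The 14 largest rises and the 14 largest falls that had the same sign in both strains and with a fixed chip block differed in this respect. For the rises, which ran from 0.95 to 1.81, the E17 gap lay between -0.14 and 0.28 (median 0.09), 14 kept their call with a random chip block and 13 with an array series block. Besides those described they were Arhgef33 (1.17), Mgarp, a mitochondrial transport protein gene (1.17), Zfp385c (1.13), Strip2 (1.07), Zfp472 (1.05), the monoacylglycerol lipase gene Mgll (1.03), the hyaluronidase-like gene Cemip (0.98) and the lysyl oxidase-like gene Loxl1 (0.95). Mgll, whose enzyme degrades the endocannabinoid 2-arachidonoylglycerol, had levels at E18 of 10.26, 10.08 and 10.06 in DBA/2J and of 10.12, 10.04 and 10.02 in C57BL/6J, against 9.14, 9.33 and 9.25 in DBA/2J and 8.83, 8.99 and 8.87 in C57BL/6J at E16. Its ages did not overlap, and its change with a fixed chip block was 0.97. For Zfp472 DBA/2J E16 replicates 1 and 2 stood at 5.58, the lowest level on any array, and replicate 3 at 8.35, so that the ages overlapped, its change was 0.4 in C57BL/6J (adjusted p = 0.768), and it was not called with the array series as a block (adjusted p = 0.18). For the falls, which ran from -1.92 to -1.47, the gap lay between -1.41 and 0.12 (median -0.93), 11 kept their call with a random chip block and 8 with an array series block. Besides those described they were Pdap1 (-1.85), the chromatin remodeller gene Chd1 (-1.75), Zfp326 (-1.69), the deadenylase-complex ubiquitin ligase gene Cnot4 (-1.67), Ankrd12 (-1.64), the heme-binding repressor gene Bach1 (-1.53), Phf14 (-1.52) and Kbtbd11 (-1.51).

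Other probes of the same genes were mostly not called. Among the 14 rises 7 genes had 8 other detected probes, with changes from -0.0 to 1.11 and a median of 0.15. Of these 3 were called higher (1.11 for Strip2, 0.69 for Mgll and 0.52 for Col6a1). Those of Itpr1 (-0.0), Pdgfra (0.02), Nkx2-2 (0.18) and Cemip (0.12) and another of Strip2 (0.02) were not called. Their mean levels ran from 6.2 to 6.91. Among the 14 falls 6 genes had 13 other detected probes, of which 0 were called, with changes from -0.5 to 0.21 and a median of 0.01. A second Luc7l3 probe, for example, had mean levels of 11.91 at E18 and 11.85 at E16. Where a called gene had more than 1 detected probe, the brightest of the rest had the same sign in 190 of 247 genes called higher and in 162 of 260 called lower, and was itself called in that direction in 34 and in 47. Probes whose name in the file matched no current or older RefSeq symbol were called lower more often: 477 of 5421 (8.8%) were lower and 121 (2.23%) higher, beside 728 of 16559 (4.4%) lower and 623 (3.76%) higher among probes named by a current symbol.

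The change with age differed between the strains for few genes. The difference, the DBA/2J change minus the C57BL/6J change, was called for 5 probes (0.0188%), 2 above 0 (0.00751%) and 3 below (0.0113%), and among genes for 4 (0.0285%), 1 above 0 (0.00713%) and 3 below (0.0214%). Cartpt, the gene of a neuropeptide precursor, had levels in DBA/2J of 7.22, 7.33 and 7.12 at E18, against 8.79, 8.35 and 7.69 at E16, and in C57BL/6J of 9.13, 8.95 and 8.85 at E18, against 7.83, 7.76 and 7.95 at E16. It was lower at E18 in DBA/2J (-1.05, adjusted p = 0.00464) and higher at E18 in C57BL/6J (1.13, adjusted p = 0.00306), and the difference was -2.18 ± 0.33 (adjusted p = 6.94e-04). Spp1, which encodes the secreted phosphoprotein osteopontin, had levels in DBA/2J of 8.41, 8.57 and 8.8 at E18, against 10.02, 10.16 and 10.05 at E16, and in C57BL/6J of 7.02, 6.74 and 7.43 at E18, against 6.52, 6.82 and 6.61 at E16. The fall was seen in DBA/2J (-1.48, adjusted p = 2.24e-05), the C57BL/6J change of 0.41 was not called (adjusted p = 0.404), and the difference was -1.89 ± 0.30 (adjusted p = 9.6e-04).

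Ccl4, a chemokine gene of microglia and macrophages, had levels in DBA/2J of 6.37, 6.49 and 6.4 at E18, against 8.04, 8.11 and 7.47 at E16, and in C57BL/6J of 6.16, 6.1 and 6.33 at E18, against 6.19, 6.37 and 6.21 at E16. The DBA/2J E16 arrays were the only high ones of the 12, and the difference was -1.39 ± 0.27 (adjusted p = 0.0355). A second Ccl4 probe was also lower at E18 over both strains (-0.32, adjusted p = 0.00112). Cdh9, a type II cadherin gene, had a difference of 0.73 ± 0.14 (adjusted p = 0.0378), with a change of 0.22 in DBA/2J and of -0.51 in C57BL/6J (adjusted p = 0.203 and 0.00285). The fifth probe carried a name in the file that matched no RefSeq symbol and had a difference of 1.17 (adjusted p = 0.0355). The 4 differences were not equally steady. Those of Cartpt and Spp1 were called in all 12 fits that left out 1 array (-2.48 to -1.93 and -2.05 to -1.71), with a fixed chip block (-1.95, adjusted p = 0.0169, and -2.24, adjusted p = 1.81e-04) and with an array series block. That of Ccl4 was called in 1 of the 12 fits, the one without DBA/2J E16 replicate 3 (adjusted p up to 0.259 in the others), and that of Cdh9 in 3 (adjusted p up to 0.569). Neither of them was called with a fixed chip block (adjusted p = 0.943 for Ccl4 and 0.0592 for Cdh9), with an array series block (adjusted p = 0.131 and 0.083) or with equal medians. Leaving out 1 array at a time gave 2 to 11 probes with a called difference, 11 of them without DBA/2J E16 replicate 3. For all other genes the strain difference was not called, which with 3 arrays in a group does not show that the strains changed alike.

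**Figure D5:**
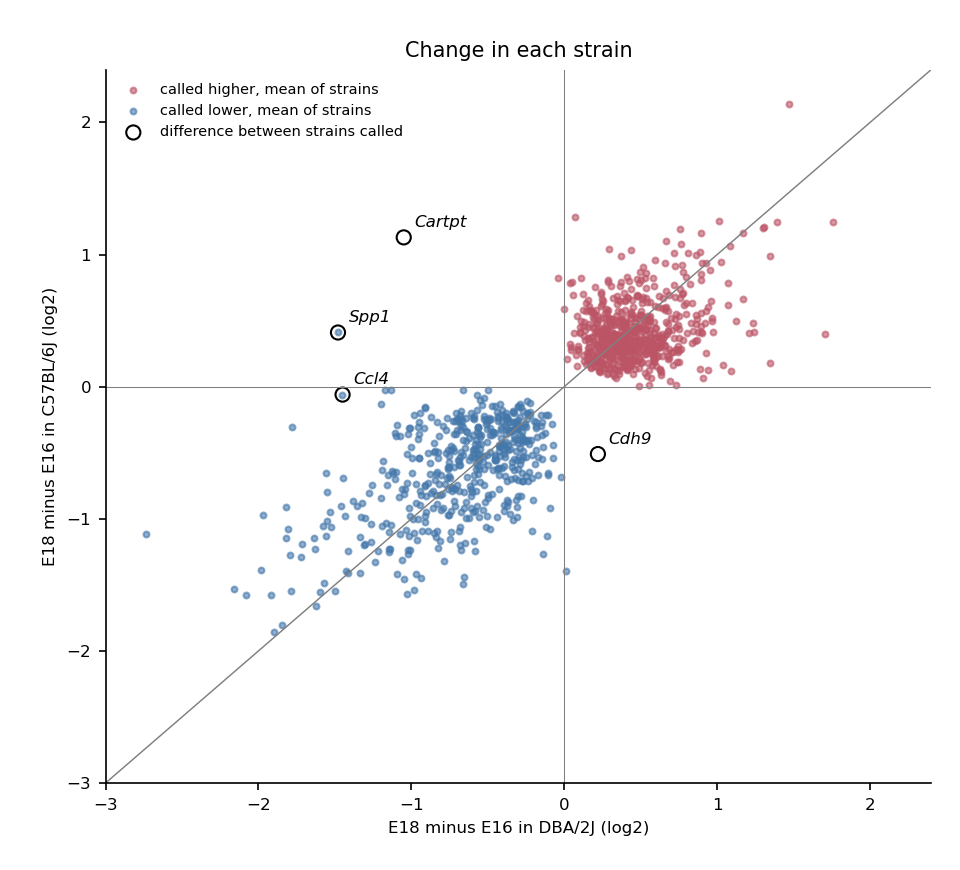
DBA/2J change (horizontal axis) and C57BL/6J change (vertical axis) at E18 against E16 (log2) for the 1146 genes called over both strains, and for the 4 genes whose strain difference was called (circled), with the diagonal marking equal changes. Cartpt lies in the quadrant of a fall in DBA/2J and a rise in C57BL/6J, and Spp1 and Ccl4 lie at falls of -1.48 and -1.45 in DBA/2J.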

How the data were processed

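Total RNA of whole cerebellum was extracted with Trizol, cleaned with DNase treatment, amplified to biotinylated cRNA and hybridised to Illumina bead arrays, per the labels' protocols. The deposited tables, 1 for each strain, hold the authors' mean bead intensity of 46632 probes on 66 arrays, per the file headers, with no detection p and no control probes. No source used here states whether background had been subtracted or arrays scaled before deposit. The depth of an array cannot be stated, and the number of arrays limits the precision. Because the state of the background was unknown, none was corrected in the main setting, where the plan foresaw correction only for tables proven raw, and normexp (offset 50) was an alternative. The authors' deposited matrix holds a score for each probe on which every array has a mean of 8 and an SD of 2, and it was used as an alternative.

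Both tables were quantile-normalized together, floored at 1 and put on the log2 scale. A probe was kept if it was above the array median (quantile 0.5) on every array of at least 1 group of 2 or more arrays, which left 26645. limma 3.58.1 (R 4.3.3) fitted 1 mean per strain and age over all 66 arrays (43 residual degrees of freedom), with eBayes, and p-values were adjusted over all probes kept (Benjamini-Hochberg). Adjusted p-values in the text are from this fit unless another is named, and tests are two-sided. Chip blocks used statmod 1.5.0, and figures matplotlib 3.10.9. The fit was tested on simulated data whose noise was drawn independently for each array. Because no chip effect was simulated, that test cannot show how the calls fare where chip and age coincide. Probes were named through RefSeq: 26307 by current symbol and 7973 by an older one, with the file's own name kept for 12352. A gene is represented by its brightest probe.

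The comparison, its gene lists and its tests were chosen with earlier results of these data known. The genes named are the 14 largest rises and 14 largest falls with 1 sign in both strains and with a fixed chip block, up to 4 called members of each list in the majority direction and up to 2 in the other, or the member of smallest p where none was called, the called strain differences, and Ttr, Xist and 4 globin genes. Some genes that this rule named are not reported here, though they stay in the counts of their lists. Genes with probes called in opposite directions are marked. Other list members named in the text, and Ccno, Ddx6 and Lsm12 were chosen after their values were seen. Alternatives changed the scaling, filter, background, chip or array series block, replicate block and arrays included, and left out 1 array at a time. Same-numbered replicates of E18 and E16 did not deviate together (correlations of -0.081, -0.04 and -0.305 in C57BL/6J and of 0.026, 0.102 and 0.168 in DBA/2J), and nothing in the labels ties them, so they were not paired. Residuals of arrays of other groups on 1 chip correlated at 0.272 over 90 pairs, and at -0.012 on different chips. Promoter sequences are from RefSeq (GRCm38.p6).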

Additional observations from a re-analysis of the deposited data

Results flagged for a closer look

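In 4 genes the change with age differed between the strains by the test of the difference itself (limma, adjusted p under 0.05), given as the DBA/2J change minus the C57BL/6J change. The difference was -2.18 for Cartpt, -1.89 for Spp1, -1.39 for Ccl4 and 0.73 for Cdh9. The change of Spp1 over both strains was called in 11 of the 12 fits that left out 1 array, and without C57BL/6J E18 replicate 2 it was -0.46 (adjusted p = 0.061). With 1 array left out at a time, the difference was called in 12 of 12 fits for Cartpt and for Spp1, in 1 for Ccl4 and in 3 for Cdh9. Groups held 3 arrays, so no test for an outlying array within a group was run.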

How the results depend on the processing

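Of 2388 probes called over both strains, 894 in C57BL/6J and 1220 in DBA/2J, and 5 for the strain difference, the fixed chip block left 1, 0, 1 and 2, the random chip block 612, 166, 181 and 5, and the array series block 381, 362, 15 and 2. A fit to the 12 arrays alone called 4984, 2531, 4959 and 13. The stricter filter (quantile 0.75) called 1543 over both strains. The strain difference was called for 3 probes with arrays scaled to equal medians, 3 with no further normalization and 3 with the authors' scores. Leaving out 1 array gave 1750 to 2345 over both strains, 181 to 885 in C57BL/6J, 330 to 1862 in DBA/2J and 2 to 11 for the difference. The replicate block, for numbers that do not pair the samples, gave 2512, 948, 1290 and 6.

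Turned signs in this section are counted among the named genes called over both strains in the main setting. With the fixed chip block the sign turned for Cenpf (0.19), Cntn2 (0.49), Nrxn3 (0.23), Syn2 (0.04), Cacna2d1 (0.01), Sufu (-0.09), Hey2 (-0.02), Fst (0.04), Irs1 (-0.13), Dek (0.05) and Ndufa10 (0.13), and 118 of the 138 named genes lost their call without turning. The other 9 had no call over both strains in the main setting, so none of the 138 kept one with this block. Among those 9, Rps18 changed by -0.18 in the main setting and by 0.09 with this block. The random chip block took the call from 60, the array series block from 80, equal medians from 25 and no further normalization from 24. Leaving out 1 array took it from 9 to 21 and turned 0 signs among the genes called in the main setting. Of the genes not called there, Cartpt ran from -0.11 to 0.17, Hbb-b1 from -0.04 to 0.1 and Hoxb4 from -0.25 to 0.01.

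A chip-matched path in C57BL/6J, chosen after seeing the data and with no test, added E17 minus E16 on 1 chip to E18 minus E17 on another. Among the named genes called in the main setting, its sign differed from the main change for Pdap1 (0.11), Zfp326 (0.56), Bach1 (0.08), Phf14 (0.17), Cenpf (0.37), Pax6 (-0.38), Cntn2 (0.39), Kitl (0.25), Nrxn3 (0.10), Syn2 (0.65), Grm5 (0.08), Scn3a (0.08), Cacna2d1 (0.45), Scn2a (0.18), Cdh8 (0.10), Ncam2 (0.09), Sufu (-0.03), Irs1 (-0.07), Dek (0.55), Stra6 (-0.05), Isl1 (0.09) and Spp1 (0.61). Of the other named genes 81 moved from the C57BL/6J change by more than the SD of the C57BL/6J E18 arrays and 35 by less. The median of the path was -0.16 over the 62 named genes called lower, beside a C57BL/6J change of -0.76, and 0.54 over the 67 called higher, beside 0.55. Within the array series that held both ages, also chosen after seeing the data, the sign differed among the genes called in the main setting for Spp1 (0.24), a C57BL/6J value. Another 48 named genes moved. The cause was not tested for any of these. Signals near the array median come with no detection limit, so small changes there are the least certain.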
